A study of Mus musculus with 18 samples.

Results

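Retinoid signalling was followed through 9 genes that receive, carry, make and remove retinoic acid. They were taken by symbol from the deposited expression table, and all 9 were present among its 14521 named genes. The members were the retinoic acid receptor genes Rara, Rarb and Rarg, the retinoid X receptor gene Rxra, the binding protein genes Crabp1 and Crabp2, the enzyme genes Dhrs9 and Aldh1a3 for synthesis, and Cyp26b1 for breakdown. RNA had been sequenced from 6 littermate female SKH-1E mice, an outbred hairless strain prone to skin tumours under ultraviolet light. All were irradiated from adulthood with solar simulators and sampled after irradiation had ended. From each mouse came a papilloma (PAP), a cutaneous squamous cell carcinoma (cuSCC) and non-lesional skin that had been chronically irradiated (CHR), so the 18 libraries formed 3 groups of n = 6 matched by mouse. Every group had received the ultraviolet light, and no library came from unirradiated skin. Samples were pieces of tissue, so each library mixed epidermis with whatever dermis, muscle, gland and blood cells it held.

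Retinol, or vitamin A, is oxidised to retinal by dehydrogenases such as DHRS9, and retinal is oxidised to retinoic acid by the ALDH1A enzymes. Cellular retinoic acid binding proteins carry retinoic acid in the cytoplasm, and CYP26 enzymes oxidise it further and so end its action. In the nucleus, retinoic acid receptors (RAR) pair with retinoid X receptors (RXR) on DNA and switch target genes on when the ligand is bound. In skin this pathway is known for its control of keratinocyte proliferation and differentiation and of the sebaceous gland, and retinoids are used to prevent skin cancer.

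RAR-RXR pairs bind direct repeats of a 6-base half-site, and Rarb is the textbook example of a receptor gene that is itself switched on by retinoic acid through such a repeat. The repeat was therefore looked for in the promoters of the members, and it is shown because Rarb had the clearest change of the 9 genes. RefSeq promoter windows of GRCm38.p6, from 250 bases before to 50 bases after each start, matched 7 members with 12 windows. Crabp2 and Aldh1a3 had no window. The half-site was searched as NGNTCA, with A or G as the first letter and G or T as the third, on both strands, with spacers of 1, 2 or 5 bases. In 1 member window, that of Rarb, a repeat with a spacer of 5 bases was found, and 32 of all 32851 windows (0.0974%) held such a repeat. Repeats with spacers of 1 and 2 bases lay in 0.222% and 0.268% of all windows and in none of the 12 member windows. The 250 bases before the Rarb start, chr14:16575477-16575726 on the minus strand, are given with the repeat in capitals. It runs from base -53 to base -37 counted from the start, at 16575513 to 16575529, and this start lies inside the longer span that GENCODE gives the gene.

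Rarb promoter: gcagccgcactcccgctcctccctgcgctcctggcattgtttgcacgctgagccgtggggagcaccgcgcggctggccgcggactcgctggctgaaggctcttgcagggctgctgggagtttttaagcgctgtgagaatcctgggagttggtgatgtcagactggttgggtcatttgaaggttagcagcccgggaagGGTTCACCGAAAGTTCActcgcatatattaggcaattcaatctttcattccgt

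Values are given as normalised reads, that is, reads per gene recovered from the deposited values and divided by the size factor of the library. Each library held 15.4 to 21.0 M recovered reads. Differences were tested within mice with limma on the log2(value + 1) scale of the deposited values, and a gene was called at an adjusted p under 0.05 over all 14521 genes. This scale understates the change of weakly expressed genes. Of all genes, 52.6% were called in PAP vs CHR, 9.85% in cuSCC vs PAP and 38.4% in cuSCC vs CHR. The share of these calls that was higher in the later stage was 44.4%, 88.8% and 41%. It was 62.4%, 68.5% and 57.8% after quantile normalization, and 51.2%, 85.2% and 52.9% in limma-voom. With a minimum mean of 100 normalised reads it was 52.1%, 86.1% and 47.5%. When each library was scaled to 8 keratinocyte genes, it was 0.474%, 99.9% and 1.31%, because that scaling moved the median of all genes by -1.39, 0.57 and -0.82 on the log2 scale. Directions in the text are therefore relative to the bulk of genes in each library.

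Markers of several cell types differed between the 3 stages. In PAP vs CHR, 6 of 8 keratinocyte markers were called higher, while 5 of 6 dermal fibroblast, 6 of 6 skeletal muscle, 4 of 5 adipocyte, 5 of 5 sebaceous gland, 3 of 3 T cell and 4 of 4 myeloid markers were called lower. Summed keratinocyte markers ranged from 133806 to 218326 normalised reads in CHR, from 415912 to 720888 in PAP and from 148460 to 480227 in cuSCC. Summed fibroblast markers ranged from 132863 to 298851 in CHR, from 4776 to 160351 in PAP and from 17028 to 492900 in cuSCC. In bulk samples, fewer cells of a type and less RNA per cell cannot be told apart. The part of these markers in the results was not tested.

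In the step from irradiated skin to papilloma, 2 of the 9 retinoid genes were called and both were lower in PAP, namely Rara and Rarb. Of all genes, 29.3% were called lower and 23.3% higher in this comparison, so the number of members called was not above the background. From papilloma to carcinoma, Crabp1 was the 1 member called higher, where 8.75% of all genes were called higher and 1.1% lower. Between carcinoma and irradiated skin, Crabp1 and Aldh1a3 were called higher and Dhrs9 lower, where 15.8% of all genes were called higher and 22.7% lower. The median log2 fold change of the 9 members was -0.33 in PAP vs CHR, 0.14 in cuSCC vs PAP and -0.30 in cuSCC vs CHR, against 0.00, -0.02 and -0.02 over all genes.

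The calls in both comparisons with carcinoma depended on the comparison being made within mice. Without the replicate block, that is, without the mouse as a term, 2 of 9 members were still called in PAP vs CHR. In cuSCC vs PAP 0 of 9 were then called by limma, with 3 of 9 at an unadjusted p under 0.05, and in cuSCC vs CHR 0 of 9, with 5 of 9 below that unadjusted p. Of all genes, the fit without the block called 5.58% in cuSCC vs PAP and 36.5% in cuSCC vs CHR, and 22.6% and 46.3% had an unadjusted p under 0.05. The calls in cuSCC vs PAP were the least stable of the 3 comparisons over the whole table. Their number was 1430 as reported, 471 without mouse 3, 0 without mouse 7, 0 without mouse 8 and 0 when only both groups entered the fit. In the 3 fits without a call, 2450, 2594 and 2830 genes still had an unadjusted p under 0.05.

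**Figure D1:**
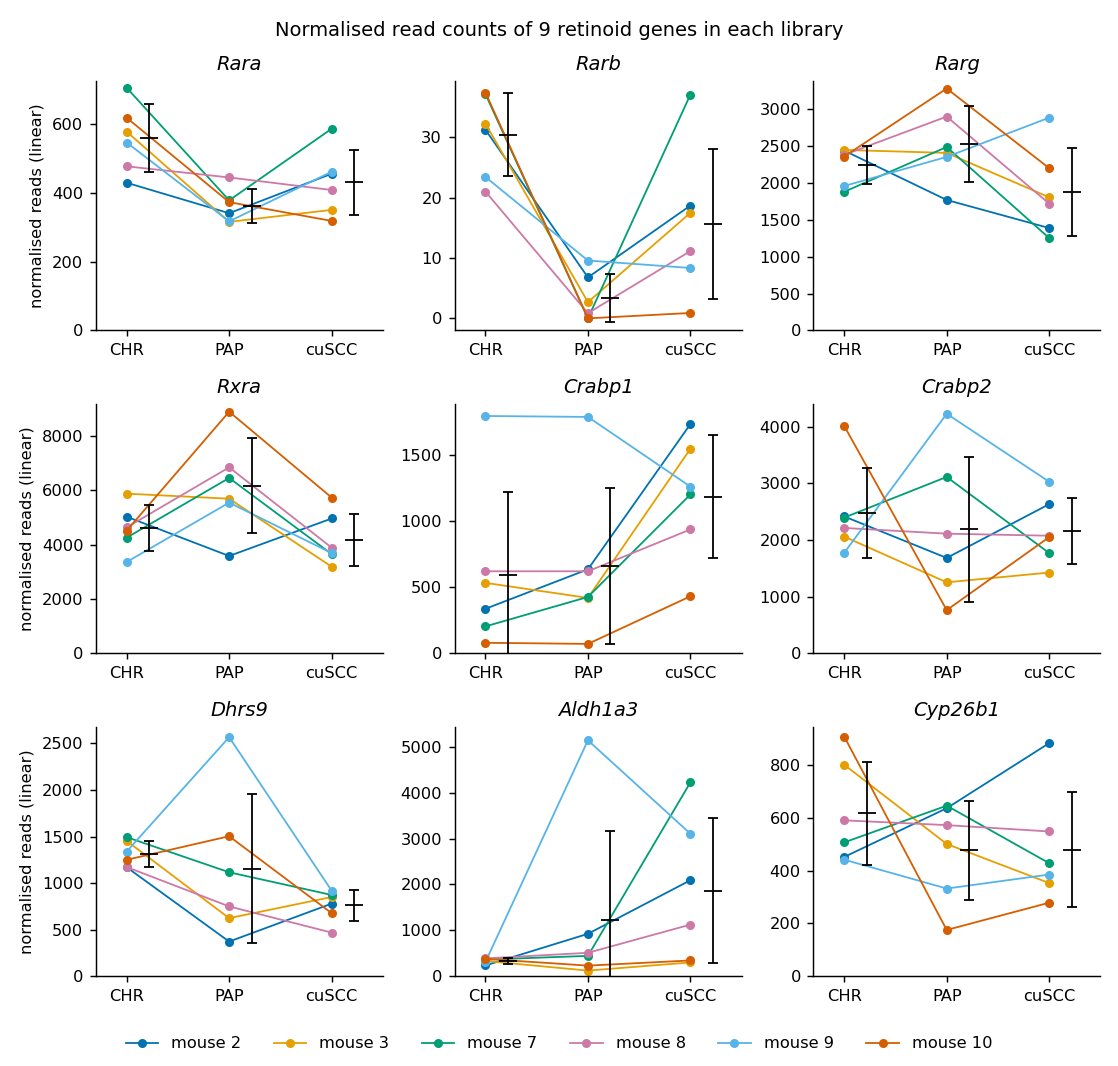
Normalised reads (vertical axis, linear) of the 9 retinoid genes in CHR, PAP and cuSCC, with 1 line per mouse and the mean ± SD (n = 6) beside each group as a bar. The 6 papillomas lie below the 6 irradiated skins for Rarb, and the 6 carcinomas lie below the irradiated skins for Dhrs9, while Crabp1 and Aldh1a3 spread widely between mice.

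**Figure D2:**
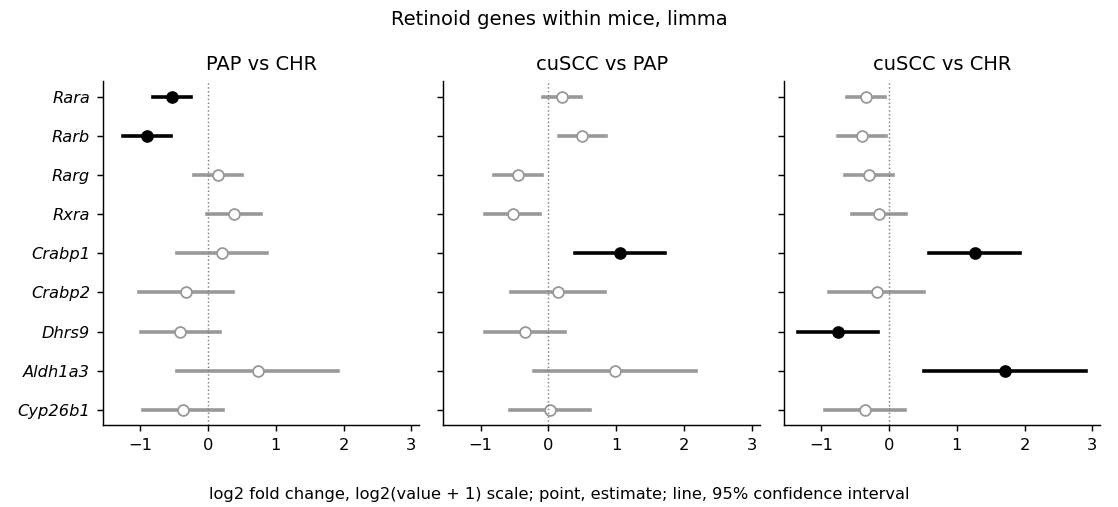
Log2 fold change (horizontal axis, log2(value + 1) scale) of each retinoid gene in the 3 comparisons within mice, as the limma estimate with its 95% confidence interval. Filled points had an adjusted p under 0.05, namely Rara and Rarb in PAP vs CHR, Crabp1 in cuSCC vs PAP, and Crabp1, Dhrs9 and Aldh1a3 in cuSCC vs CHR.

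Rarb encodes RAR beta, which is induced by retinoic acid in many tissues and is often silenced in epithelial tumours. It lies on GRCm38 chromosome 14 from 16430839 to 16819156 on the minus strand (ENSMUSG00000017491.9). In CHR its normalised reads ran from 21.0 over a median of 31.8 to 37.4. In PAP they ran from 0 over 1.77 to 9.59, and in cuSCC from 0.895 over 14.3 to 37.1. The papillomas lay below every irradiated skin without overlap, and the carcinomas covered the whole range between. The papillomas of mice 7 and 10 had 0 reads, where a count of 0 allows up to 3 reads or 3.13 and 3.15 normalised reads, and those of mice 2, 3, 8 and 9 had 8, 3, 1 and 8 reads.

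Rarb fell in PAP vs CHR by 0.90 on the log2(value + 1) scale, with an SE of 0.16 and a limma adjusted p of 0.000512, and all 6 mice had the lower value in PAP. Of all genes, 19.3% were lower in PAP than in CHR without overlap between the groups. Read as means, PAP held 3.32 ± 3.99 normalised reads against 30.4 ± 6.87 in CHR (SD, n = 6), a ratio of 0.109. On recovered reads, where low counts are not compressed, limma-voom gave a log2 fold change of -3.45 ± 0.82 (SE) with an adjusted p of 0.0036. The call was kept in 6 of 6 fits that left out a mouse, with an adjusted p of 0.000648 to 0.00322. After quantile normalization the difference was -0.40 (adjusted p 0.0268).

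From PAP to cuSCC, Rarb was higher in 5 of 6 mice, with a log2 difference of 0.50 ± 0.16 (SE) and a limma adjusted p of 0.0694. This missed the threshold, but passed it without mouse 9 (0.0431) and without mouse 10 (0.042). The carcinoma of mouse 7 was back at the level of its own skin, with 37.1 against 37.2 normalised reads, whereas that of mouse 10 held 1 read. Against CHR the difference in cuSCC was -0.40 ± 0.16 (adjusted p 0.0684), although cuSCC was lower in all 6 mice. Without mouse 7 the adjusted p was 0.0303. Quantile normalization moved these differences to 0.26 (0.263) in cuSCC vs PAP and -0.14 (0.446) in cuSCC vs CHR. Depth limits all of these values, since no library had more than 39 Rarb reads.

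The annotation places exons of Top2b, which encodes DNA topoisomerase II beta, on the other strand over 1793 exon bases of Rarb, and the strand setting of the counting is not given in the sources used here. Reads of both genes in the shared bases may thus be mixed or left uncounted. The papillomas of mice 7 and 10, which had 0 Rarb reads, held 7859 and 8192 normalised reads of Top2b. The part of the shared bases in the Rarb values was not tested. Top2b itself had a mean of 7629 ± 982 normalised reads in CHR, 7912 ± 721 in PAP and 7617 ± 1512 in cuSCC (SD, n = 6). Its log2 difference in PAP vs CHR was 0.06 (95% confidence interval -0.19 to 0.30), with an adjusted p of 0.706.

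Rara encodes RAR alpha, a receptor found in most tissues, on chromosome 11 from 98927818 to 98974942. Normalised reads of Rara ran from 429.9 over a median of 563 to 706 in CHR, from 316 over 357 to 445 in PAP and from 319 over 432 to 587 in cuSCC. Every papilloma was below the skin of its own mouse, although the lowest skin (mouse 2) and the highest papilloma (mouse 8) overlapped. Rara fell in PAP vs CHR by 0.53 ± 0.13 (SE) on the log2(value + 1) scale, with a limma adjusted p of 0.00382, and the ratio of means was 0.647. The fall ranged over mice from a ratio of 0.536 to 0.932, and it stayed called in 6 of 6 fits without a mouse. In cuSCC, Rara was lower than in CHR in 5 of 6 mice with a difference of -0.34 ± 0.13 and an adjusted p of 0.0555. Leaving out mouse 2 brought this to -0.42 with an adjusted p of 0.0357.

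Rarg encodes RAR gamma, the main RAR of epidermis, on chromosome 15 from 102234938 to 102257517. Rarg had normalised reads that ran from 1880.0 over a median of 2370.0 to 2447 in CHR, from 1769 over 2447 to 3280.0 in PAP and from 1252 over 1762 to 2885 in cuSCC. The 3 ranges overlapped, and PAP exceeded CHR in 4 of 6 mice. No comparison passed the threshold, with log2 differences of 0.15 (95% confidence interval -0.20 to 0.50), -0.45 (-0.80 to -0.10) and -0.29 (-0.65 to 0.06) in PAP vs CHR, cuSCC vs PAP and cuSCC vs CHR. The adjusted p values were 0.453, 0.103 and 0.17. Mouse 9 went against the others in carcinoma, with 2885 normalised reads against 1958 in its skin. Without this mouse both cuSCC comparisons were called, at -0.59 (adjusted p 0.0239) vs PAP and -0.46 (0.0274) vs CHR.

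Among the RAR genes, Rarg made up most of the reads per kb of exon in all 18 libraries, with 67.5% as its lowest share. Its mean share of summed RAR reads per kb was 79.6% ± 4.34 in CHR, 87.4% ± 2.05 in PAP and 80.1% ± 7.63 in cuSCC (SD, n = 6). That of Rara was 19.6% ± 4.21, 12.5% ± 1.99 and 19.2% ± 7.09. Rarb contributed 0.876% ± 0.196, 0.109% ± 0.133 and 0.63% ± 0.57. The exon bases that Rarb shares with Top2b were included in its length. The share of Rarg was higher in PAP than in CHR in 5 of 6 mice, mouse 2 being the exception with 83.9% against 84.6%. These shares were not tested, and they moved by less than their SD when the longest transcript replaced the union of exons as the length.

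**Figure D3:**
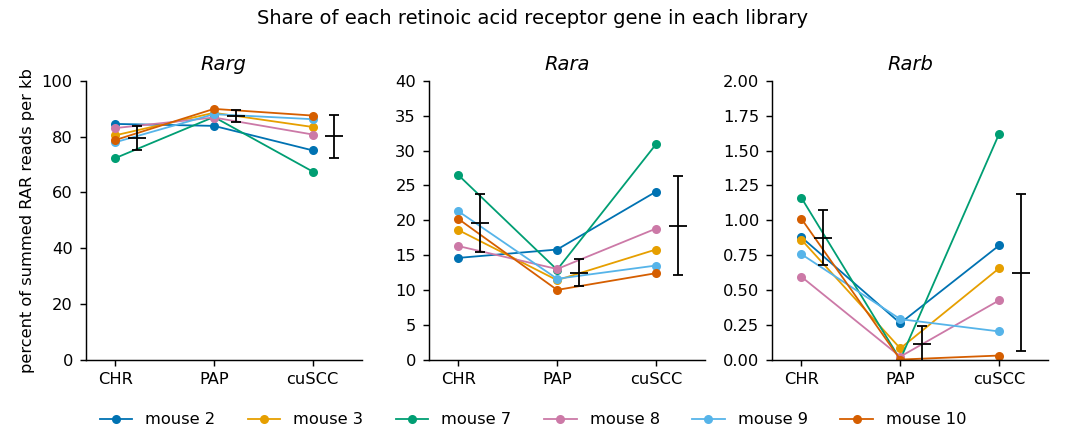
Share of each RAR gene in the summed RAR reads per kb of exon (vertical axis, percent, with a different range in each panel) in CHR, PAP and cuSCC, with 1 line per mouse and the mean ± SD (n = 6) beside each group. Rarg lies at 83.9 to 90.0% in PAP while Rara lies between 10 and 15.8% and Rarb at 0.29% or less.

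Rxra encodes RXR alpha, the main RXR of epidermis and the shared partner of the RARs, on chromosome 2 from 27676440 to 27762957. Across mice, Rxra ran from 3364 normalised reads over a median of 4578 to 5880.0 in CHR, from 3585 over 6076 to 8898 in PAP and from 3192 over 3793 to 5736 in cuSCC. The groups overlapped, with PAP higher than CHR in 4 of 6 mice and cuSCC lower than PAP in 5 of 6. The log2 differences were 0.38 ± 0.19 (SE) in PAP vs CHR and -0.53 ± 0.19 in cuSCC vs PAP, with limma adjusted p of 0.102 and 0.0945. In mouse 2 both went the other way, and without it both were called, at 0.56 (0.0118) and -0.73 (0.0265). In cuSCC vs CHR the difference was -0.15 (95% confidence interval -0.55 to 0.26) with an adjusted p of 0.566.

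The remaining RXR genes belong to the wider pathway list. Rxrb was called higher in PAP than in CHR by 0.32 ± 0.08 (adjusted p 0.00677, 6 of 6 mice), from 740.0 ± 95.4 to 940.0 ± 94.2 normalised reads. Rxrg, an RXR gene of muscle and nervous tissue, fell from a mean of 60 ± 19.6 in CHR to 1.59 ± 2.21 in PAP, by 1.46 ± 0.13 (adjusted p 2.1e-06), and had 0 reads in 3 papillomas. It was also called lower in cuSCC, at 6.46 ± 4.6 normalised reads. Summed skeletal muscle markers fell beside it, with ranges of 346681 to 524440, 124 to 25855 and 237 to 173273 in CHR, PAP and cuSCC. Of the summed RXR reads per kb, Rxra held 79.7% ± 2.83, 81.7% ± 5.49 and 78.9% ± 4.57 (SD, n = 6), and Rxrg 2.58%, 0.0661% and 0.307%. These RXR shares were computed after the values had been seen.

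Crabp1 encodes a retinoic acid binding protein of the cytoplasm that in skin is known mainly from dermal and hair follicle mesenchyme, on chromosome 9 from 54764748 to 54773110. Across mice, Crabp1 ran from 79.7 normalised reads over a median of 434 to 1791 in CHR, from 71.3 over 522 to 1784 in PAP and from 431 over 1229 to 1730.0 in cuSCC. Carcinomas differed 4.02-fold between mice, skins 22.5-fold and papillomas 25-fold. The carcinoma of mouse 10 lay below the median skin, and the highest skin and papilloma exceeded every carcinoma. Mouse 9 was highest and mouse 10 lowest in both skin and papilloma. Within mice, the ratio of papilloma to skin was 0.786 to 2.09.

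In cuSCC vs CHR, Crabp1 rose by 1.26 ± 0.31 (SE) on the log2(value + 1) scale, and 5 of 6 mice showed the rise (limma adjusted p 0.00648). The means were 1183 ± 461 and 594 ± 620 normalised reads (SD, n = 6). The exception was mouse 9, at 1258 against 1791. This call was kept in 6 of 6 fits that left out a mouse (adjusted p 0.00101 to 0.0309), but without the replicate block the adjusted p was 0.0894. Scaled to the 8 keratinocyte genes, the difference was 0.46 with an adjusted p of 0.216, and the call was lost. That scaling shifts all genes of a library alike and moved their median by -0.82. Relative to this median Crabp1 stood at 1.28, which only restates the unscaled difference and is no separate check. In cuSCC vs PAP it rose by 1.05 ± 0.31 (adjusted p 0.0475), again in 5 of 6 mice. That call lies at the threshold. It was lost without mouse 2 (0.0928), 3 (0.164), 7 (0.157), 8 (0.12) or 10 (0.114), in limma-voom (0.203), with a minimum mean of 100 normalised reads (0.0533), after quantile normalization (0.0762), with only both groups in the fit (0.093) and without the replicate block (0.284). In PAP vs CHR the difference was 0.21 (95% confidence interval -0.46 to 0.87) with an adjusted p of 0.595.

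Fibroblast markers moved with Crabp1 across part of these libraries. Their sum was highest in mouse 9 in CHR (298851) and PAP (160351) and in mouse 2 in cuSCC (492900), which were also the highest Crabp1 libraries of their groups. It was lowest in mouse 10 in PAP (4776) and cuSCC (17028), as was Crabp1. In CHR the sum was lowest in mouse 2 (132863), whereas Crabp1 was lowest in mouse 10. Of the 6 fibroblast markers, 5 were called lower in PAP vs CHR, with a median log2 fold change of -2.74 over the list. Crabp1 was not called there, at 0.21. In cuSCC vs PAP 2 of the markers were called higher, and in cuSCC vs CHR 1 was called lower. The part of fibroblast content in the Crabp1 result was not tested.

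The genes whose pattern over the 18 libraries was most like that of Crabp1 were Wisp1, Thbs2 and Adam12. After each gene was centred on its mean, their root mean square difference from Crabp1 was 0.60, 0.60 and 0.61 on the log2 scale, against 1.12 for the spread of Crabp1 itself. Wisp1 ran from 413.7 to 1257 normalised reads in CHR, from 88.1 to 1747 in PAP and from 312 to 3226 in cuSCC. Its lowest library in each group was that of mouse 10, as for Crabp1.

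**Figure D4:**
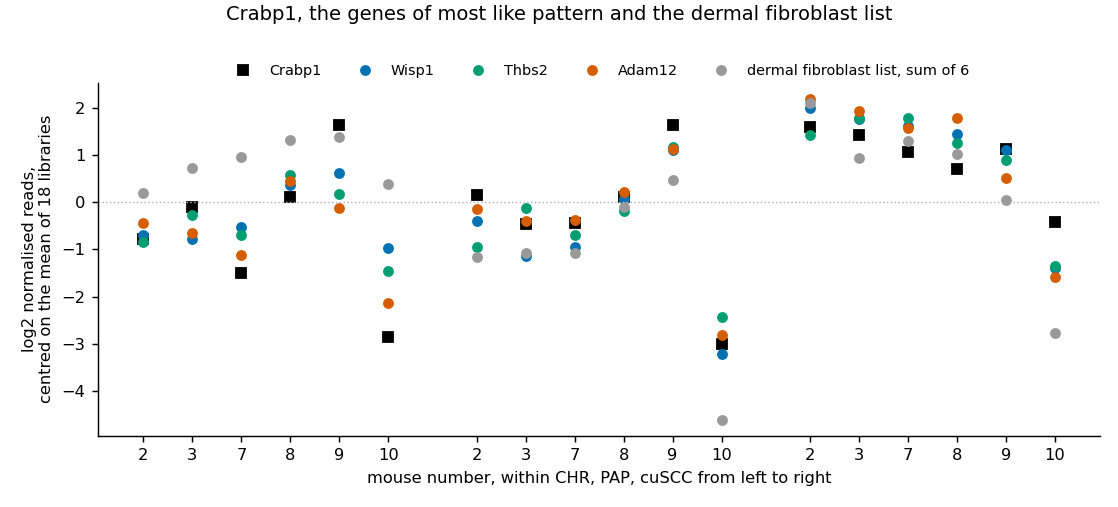
Log2 normalised reads centred on the mean of 18 libraries (vertical axis) for Crabp1, the 3 genes of most like pattern and the sum of 6 dermal fibroblast markers, with libraries ordered by group and mouse number (horizontal axis). Mouse 10 is lowest for Crabp1 in each group, and the carcinomas of the other mice all lie above the mean.

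Crabp2 encodes the binding protein that hands retinoic acid to RARs, is expressed in epidermis and is itself induced by retinoids, on chromosome 3 from 87948666 to 87953376. Normalised reads of Crabp2 ran from 1773 over a median of 2304 to 4012 in CHR, from 763 over 1897 to 4226 in PAP and from 1425 over 2063 to 3027 in cuSCC. Papillomas spread most, and mouse 10, highest in skin, was lowest in papilloma. No comparison passed the threshold. The log2 differences were -0.32 (95% confidence interval -1.02 to 0.37), 0.14 (-0.55 to 0.84) and -0.18 (-0.88 to 0.51) in PAP vs CHR, cuSCC vs PAP and cuSCC vs CHR, with adjusted p of 0.418, 0.833 and 0.686. These intervals include changes of more than 0.5 in either direction for 2 of the 3 comparisons, so an absence of change is not shown.

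Dhrs9 encodes a dehydrogenase that oxidises retinol to retinal in epithelia, on chromosome 2 from 69380445 to 69404533. For Dhrs9, normalised reads ran from 1171 over a median of 1295 to 1494 in CHR, from 373 over 934 to 2568 in PAP and from 469 over 816 to 919 in cuSCC. Skins and carcinomas did not overlap, whereas papillomas reached from below the lowest carcinoma to above the highest skin. Of all genes, 11.3% were lower in cuSCC than in CHR without overlap. Dhrs9 fell in cuSCC vs CHR by 0.75 ± 0.27 (SE) on the log2(value + 1) scale, with a limma adjusted p of 0.0434 and ratios within mice of 0.4 to 0.687. Mean normalised reads were 762 ± 166 in cuSCC and 1313 ± 139 in CHR (SD, n = 6).

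The size of this fall was steady, from -0.80 to -0.66 when a mouse was left out, but its adjusted p passed the threshold in 2 of 6 such fits. It was 0.0768 without mouse 3, 0.0932 without mouse 7, 0.137 without mouse 8 and 0.0791 without mouse 10. It was 0.0533 in limma-voom and 0.0599 without the replicate block. In PAP vs CHR the difference was -0.41 ± 0.27 with an adjusted p of 0.226, and without mouse 9, whose papilloma had the 2568 reads, it was -0.67 with 0.0447. Of 5 markers of differentiating keratinocytes, 4 were called lower in cuSCC vs CHR. Their sum ran from 181233 to 485539 normalised reads in CHR and from 8022 to 314179 in cuSCC. The part of this shift in the Dhrs9 result was not tested.

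Aldh1a3 encodes a retinal dehydrogenase that makes retinoic acid, on chromosome 7 from 66390890 to 66427517. Values of Aldh1a3 ran from 236 normalised reads over a median of 348 to 389 in CHR, from 124 over 478 to 5142 in PAP and from 302 over 1609 to 4227 in cuSCC. Skins were uniform, within 1.65-fold of each other, while papillomas differed 41.6-fold and carcinomas 14.0-fold. Carcinomas of mice 2, 7, 8 and 9 held 2093, 4227, 1126 and 3105 normalised reads, above every skin. Those of mice 3 and 10, at 302 and 345, stayed within the range of skin.

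Aldh1a3 rose in cuSCC vs CHR by 1.71 ± 0.55 (SE) on the log2(value + 1) scale, and 4 of 6 mice showed the rise (limma adjusted p 0.0265). The means were 1866 ± 1579 and 335 ± 56.9 normalised reads (SD, n = 6), a ratio of 5.57, and limma-voom gave 2.36 ± 0.65 with an adjusted p of 0.0135. The call was lost without mouse 2 (adjusted p 0.0859), mouse 7 (0.0815) or mouse 8 (0.0603), and without the replicate block (0.0572). It was also lost when libraries were scaled to the 8 keratinocyte genes, with a difference of 0.91 (adjusted p 0.142). Relative to the median of all genes, which that scaling moved by -0.82, Aldh1a3 stood at 1.73. This value, too, only restates the unscaled difference and is no separate check. In PAP vs CHR and cuSCC vs PAP the differences were 0.73 (95% confidence interval -0.46 to 1.92) and 0.98 (-0.21 to 2.17), with adjusted p of 0.284 and 0.301. The value in PAP vs CHR rested largely on the papilloma of mouse 9, since it was 0.13 without that mouse.

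Of the remaining ALDH1A genes, 1 was called. Aldh1a1 fell from 275 ± 72.3 normalised reads in CHR to 35.0 ± 35.8 in PAP and 36.4 ± 19.7 in cuSCC (SD, n = 6). Its log2 fold changes were -1.99 ± 0.23 and -1.85 ± 0.23 (SE), and both falls were seen in all 6 mice (limma adjusted p 1.32e-05 and 7.65e-05). Aldh1a2 was not called in any comparison. In a split computed after the values had been seen, Aldh1a3 made up 52.0% ± 6.0 of summed ALDH1A reads per kb in CHR, 85.9% ± 16.1 in PAP and 89.2% ± 12.2 in cuSCC. The share of Aldh1a1 was 39.3% ± 5.69, 10.7% ± 15.4 and 4.3% ± 5.01. Aldh1a3 was thus the leading ALDH1A gene on average in every group. The summed reads per kb of the family were 141 ± 26.9, 285 ± 438 and 424 ± 342, where the papilloma of mouse 9 alone held 1171. Without that library the PAP mean was 108 ± 64.6 (SD, n = 5), below that of CHR.

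Bhlhe22, Klk14 and Arg1 were the genes with the pattern most like that of Aldh1a3 over the 18 libraries. Their root mean square difference was 0.87, 0.87 and 0.90 on the log2 scale, against 1.37 for the spread of Aldh1a3 itself, so the likeness was weaker than for Crabp1. Arg1, which encodes arginase, ran from 235 to 677 normalised reads in CHR, from 641 to 7291 in PAP and from 1528 to 7673 in cuSCC. Its highest papilloma was that of mouse 9 and its highest carcinoma that of mouse 7, as for Aldh1a3.

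Cyp26b1 encodes a cytochrome P450 that breaks down retinoic acid, on chromosome 6 from 84571414 to 84593908. Normalised reads of Cyp26b1 ran from 441 over a median of 548 to 907 in CHR, from 175 over 536 to 646 in PAP and from 278 over 406 to 882 in cuSCC. The ranges overlapped, and mouse 10 went from the highest skin to the lowest papilloma. The log2 differences were -0.37 (95% confidence interval -0.96 to 0.22) in PAP vs CHR, 0.02 (-0.57 to 0.61) in cuSCC vs PAP and -0.35 (-0.94 to 0.23) in cuSCC vs CHR. None passed the threshold, with limma adjusted p of 0.271, 0.975 and 0.327. An absence of change is not shown by these intervals. Cyp26a1 and Cyp26c1, the related genes, were looked for and were not among the named genes of the deposited table.

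Levels of different genes were compared per kb of exon. In CHR the order from high to low was Crabp2 at 1874 ± 596 normalised reads per kb (SD, n = 6), Rxra at 845 ± 153, Crabp1 at 740.0 ± 773, Rarg at 527 ± 59.9, Dhrs9 at 307 ± 32.6, Rara at 128 ± 22.7, Cyp26b1 at 115 ± 36.3, Aldh1a3 at 72.6 ± 12.3 and Rarb at 5.78 ± 1.31. The range of Crabp1 overlapped those of Rxra and Rarg beside it, and that of Cyp26b1 overlapped those of Rara and Aldh1a3. These places in the order rest on means alone and were not compared within mice. By mean, Crabp2 was first and Rarb last in all 3 groups, although the range of Crabp2 overlapped that of Crabp1 in each. In PAP the range of Crabp2, 577 to 3197, also overlapped those of Rxra, Rarg, Dhrs9 and Aldh1a3. In cuSCC, Crabp1 took the second place with 1475 ± 575 and Aldh1a3 the fifth with 404 ± 342, against 440.0 ± 140.0 for Rarg in the fourth.

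Mouse 9 had the highest papilloma value of 5 of the 9 genes, namely Rarb, Crabp1, Crabp2, Dhrs9 and Aldh1a3. Mouse 10 had the highest papilloma value of Rarg and Rxra and the lowest of Crabp1, Crabp2 and Cyp26b1. Its papilloma and carcinoma also had the lowest fibroblast sums of their groups.

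The wider pathway was read from 58 further genes in 8 role groups, of which 49 were in the table. In PAP vs CHR 11 were called higher and 23 lower, in cuSCC vs PAP 4 higher and 0 lower, and in cuSCC vs CHR 10 higher and 19 lower. Their median log2 fold change was -0.29, -0.09 and -0.36 in the 3 comparisons. In the same order, 23.3%, 8.75% and 15.8% of all genes were called higher and 29.3%, 1.1% and 22.7% lower. The 4 calls in cuSCC vs PAP, Rbp4, Rarres2, Tgm2 and Cd38, were all lost without mouse 7 (adjusted p 0.0537 to 0.17) and without mouse 8 (0.0807 to 0.139).

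**Figure D5:**
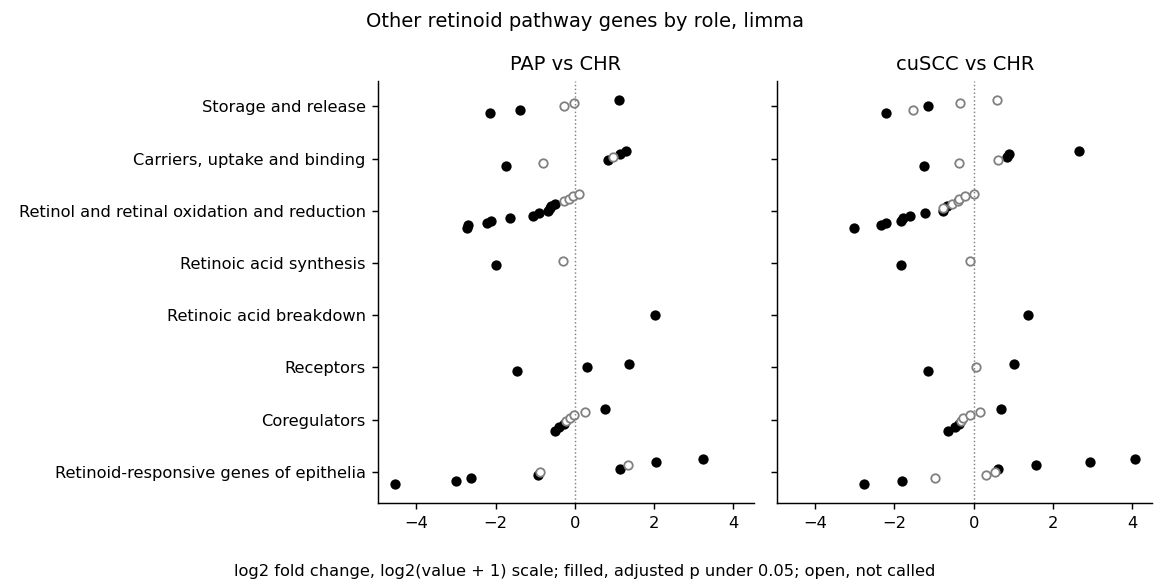
Log2 fold change (horizontal axis, log2(value + 1) scale) of 49 further retinoid pathway genes by role (vertical axis), in PAP vs CHR and cuSCC vs CHR, with 1 point per gene, filled where the limma adjusted p was under 0.05. In the oxidation and reduction group, all 11 called genes in PAP vs CHR and all 9 in cuSCC vs CHR lie below 0.

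The enzymes that interconvert retinol and retinal, to which Dhrs9 also belongs by function, were mostly lower in both lesions. Of 15 such genes in the table, 11 were called lower and 0 higher in PAP vs CHR, with log2 fold changes of -2.72 to -0.49, and 9 were called lower and 0 higher in cuSCC vs CHR, at -3.02 to -0.66. Over the whole table, 29.3% of genes were called lower in PAP vs CHR and 22.7% in cuSCC vs CHR. In cuSCC vs PAP 0 of these 15 genes were called by limma. Sdr16c6, a dehydrogenase of the retinol dehydrogenase type, fell from 7452 ± 3318 normalised reads in CHR to 1044 ± 433 in PAP and 882 ± 370 in cuSCC (SD, n = 6). Adh1, which encodes a class I alcohol dehydrogenase, went from 550.0 ± 144 to 44.2 ± 41.9 and 72.9 ± 43.5, and Rdh1, a retinol dehydrogenase gene, from 872 ± 350 to 177 ± 167 and 108 ± 27.4. Their limma adjusted p values were 8.89e-06 to 0.000396 in both comparisons with CHR, and each was lower in 6 of 6 mice.

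Sebaceous gland markers moved the same way as this group. All 5 were called lower in PAP and in cuSCC, and their sum ran from 45091 to 147361 normalised reads in CHR, from 868 to 6200 in PAP and from 1539 to 13304 in cuSCC. In skin, mouse 10 had the highest sebaceous sum and the highest Sdr16c6 (11827 normalised reads), and mouse 3 the lowest of both (3706). The part of sebaceous gland content in these results was not tested.

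Storage genes were mixed. Awat2, an acyltransferase gene of the sebaceous gland that can esterify retinol, fell from 398 ± 265 to 33.6 ± 15.4 and 28.7 ± 12.7 normalised reads in CHR, PAP and cuSCC, with log2 fold changes of -2.14 and -2.22 (adjusted p 3.33e-05 and 7.93e-05). Lipe, which encodes hormone-sensitive lipase, fell by 1.38 in PAP and by 1.15 in cuSCC (0.000551 and 0.00332), beside 4 of 5 adipocyte markers called lower in both. Bco2, a carotenoid-cleaving enzyme gene, rose in PAP from 52.0 ± 14.4 to 194 ± 91.0, by 1.12 (0.00181), and was not called in cuSCC, at 0.59 (0.07).

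Of 6 carrier, uptake and binding genes in the table, 3 were called higher and 1 lower in each comparison with CHR. The shares of all genes were 23.3% higher and 29.3% lower in PAP vs CHR, and 15.8% and 22.7% in cuSCC vs CHR. Stra6, the receptor that takes retinol into cells, rose from 9.39 ± 6.20 normalised reads in CHR to 93.4 ± 86.3 in PAP and 414 ± 241 in cuSCC (SD, n = 6). Its log2 fold changes were 1.16 ± 0.45 and 2.65 ± 0.45 (SE), and both rises were seen in all 6 mice (adjusted p 0.0462 and 0.00072). The carcinoma of mouse 10 stayed low at 17.9, where the others held 265 to 656. In PAP the call of Stra6 was lost without mouse 2 (0.13), 3 (0.079), 8 (0.053) or 9 (0.148). Fabp5, a fatty acid binding protein that can also carry retinoic acid, rose by 1.30 in PAP and 0.89 in cuSCC (0.00269 and 0.0324), the latter lost without mouse 2 (0.0595), 7 (0.0527), 9 (0.0519) or 10 (0.119). Rbp4, the blood carrier of retinol, went the other way, from 87.6 ± 22.1 to 1.5 ± 1.38 in PAP and 12.6 ± 8.28 in cuSCC, with adjusted p of 7.18e-07 and 2.72e-05, and it was called higher in cuSCC than in PAP (0.0295, but 0.0751 without the replicate block). Rbp4 is expressed in adipocytes, whose markers here were Adipoq, Plin1, Lep, Cidec and Fabp4. These summed to 3686 to 9764 in CHR, 1449 to 12778 in PAP and 1211 to 21613 in cuSCC, with medians of 8321, 4966 and 9289. Despite these sums, 4 of the 5 were called lower than in CHR both in PAP and in cuSCC. The median log2 fold changes of the list were -3.689 and -2.965. In at least 1 papilloma 4 of the 5 were at 0, and 4 in at least 1 carcinoma. The part of fat content was not tested.

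Cyp2s1, a P450 of epithelia reported to metabolise retinoic acid, was the 1 further breakdown gene in the table. It rose from 151 ± 74.8 to 958 ± 787 normalised reads in PAP and 547 ± 317 in cuSCC, by 2.02 and 1.37 (adjusted p 0.000802 and 0.0145), the latter 0.0519 without mouse 9. Among nuclear receptors, Ppard responds to fatty acids and has been linked to retinoic acid carried by FABP5. It rose by 1.37 ± 0.15 in PAP and 1.02 ± 0.15 in cuSCC, each in 6 of 6 mice (1.13e-05 and 0.000305). The coactivator genes Ncoa1 and Ncoa3 fell by 0.49 and 0.40 in PAP (0.034 and 0.00898) and by 0.65 and 0.48 in cuSCC (0.0126 and 0.00509). The call of Ncoa1 in PAP was lost without mouse 2 (0.087), 3 (0.0899), 8 (0.0513) or 10 (0.0536) and without the replicate block (0.0527). Nrip1, a corepressor that binds liganded receptors and is induced by retinoic acid, rose by 0.78 and 0.70 (0.000284 and 0.00125).

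The genes known to respond to retinoids in epithelia did not move in 1 direction in either comparison with CHR. Of 9 in the table, 3 were called higher and 4 lower in PAP vs CHR, and 4 higher and 2 lower in cuSCC vs CHR. Of all genes, 23.3% were called higher and 29.3% lower in the former, and 15.8% and 22.7% in the latter. In cuSCC vs PAP 3 of the 9 were called higher and 0 lower, where the shares were 8.75% and 1.1%. These 3 calls were all lost without mouse 7 and without mouse 8. Rarres2, which encodes the chemoattractant chemerin, fell from 2816 ± 320.0 normalised reads in CHR to 92.8 ± 130 in PAP, a log2 fold change of -4.53 ± 0.63 (adjusted p 6.19e-05, 6 of 6 mice), and was called higher again in cuSCC vs PAP by 2.72 (0.0198), at 1279 ± 1272. Its carcinomas ran from 16.1 in mouse 10 to 3696 in mouse 7. These were the lowest and highest mice for Rarb too, but also for Tgm2, Cd38 and the summed myeloid markers. Rarres2 was also called lower in cuSCC than in CHR by limma (0.0363), a call lost in limma-voom (0.15), with only both groups in the fit (0.0512) and without mouse 2 (0.057), 3 (0.0659), 8 (0.0637), 9 (0.0848) or 10 (0.119). The call in cuSCC vs PAP was also lost without mouse 3 (0.0825), in limma-voom (0.0562) and with only both groups in the fit (0.0719). Has3, which encodes a hyaluronan synthase, rose from 834 ± 587 to 7954 ± 4747 in PAP and 5675 ± 2721 in cuSCC, by 3.25 and 2.95 (0.000134 and 0.000653). Krt13, a keratin of internal epithelia, rose in cuSCC vs CHR by 4.08 ± 1.10 (0.011). It did so very unevenly, with 6.27 to 36504 normalised reads over the 6 carcinomas, and its adjusted p was 0.0536 without mouse 9.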

How the data were processed

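mRNA was sequenced from CHR, PAP and cuSCC of 6 mice (18 libraries). MOSAIK was used by the authors for alignment to mm10 (GRCm38) and HTSeq for counting, and the counts were scaled by size factors and variance-stabilized with DESeq2. What was deposited is a rounded score on the linear scale of that transformation, in which 0 reads appear as 39. Versions, annotation and strand setting are not given in the sources used here, and no label names the batches whose scaling the methods mention.

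The transformation was inverted with a fitted zero level of 39.13, and 99.5% of values came out as whole reads exactly. Size factors were 0.835 to 1.18. Of 14542 entries, 21 with a number in place of a symbol (at most 0.236% of a library) were left out, as were 0 columns. Genes of low value had been removed before deposition, and the smallest maximum over libraries was 57. Over 153 pairs of libraries, no more than 2.24% of values coincided, so none was a copy.

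limma (3.58.1, R 4.3.3) was fitted to log2(value + 1) over all 18 libraries with group and mouse as terms, with Benjamini-Hochberg adjustment over 14521 genes and a threshold of 0.05, two-sided. The fit was tested on simulated data. Alternatives were limma-voom on recovered reads, no mouse term, a pseudocount of 10, a minimum mean of 100 normalised reads, quantile normalization, scaling to 8 keratinocyte genes, trend and robust variance, only both groups compared, and leaving out each mouse. The pairing comes from the mouse, as the methods state. Deviations from the group mean of samples of the same mouse correlated at -0.23 to 0.22 in PAP and CHR, -0.245 to 0.391 in cuSCC and PAP and -0.0881 to 0.507 in cuSCC and CHR.

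The members and lists were chosen with earlier results of these data known. The text names all members, up to 3 called genes of each pathway role with the largest log2 fold change, and the 3 genes most like each member whose group means differed by more than 1. Tgm2 and Cd38 were named after their values were seen. Coordinates and exon lengths are from GENCODE for GRCm38. Limits on counts of 0 cover counting error only.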

Additional observations from a re-analysis of the deposited data

Results flagged for a closer look

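In 4 of 27 groups of 6 libraries, 1 library stood far from the others, with a gap to its neighbour that took up most of the range of the group (above the critical value of Dixon's test at the 95% level). For independent samples from a normal distribution, about 5% of groups would pass this value. The test used normalised reads on the linear scale, and the groups share the same mice, so that rate need not hold here. Crabp1 had 1791 normalised reads in the skin of mouse 9 and 1784 in its papilloma, where the highest of the other mice had 619 and 634. Aldh1a3 had 5142 in the papilloma of mouse 9, and the next papilloma had 925. Crabp2 had 4012 in the skin of mouse 10, and the next skin had 2415. Of the calls in the report, the fall of Rara and Rarb in PAP and the rise of Crabp1 in cuSCC vs CHR were kept without either mouse. The rise of Aldh1a3 in cuSCC vs CHR was also kept without mouse 9 and without mouse 10. The fall of Dhrs9 in cuSCC vs CHR and the rise of Crabp1 in cuSCC vs PAP were lost without mouse 10.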

How the results depend on the processing

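Without the replicate block (the mouse term), 0 members were called in cuSCC vs PAP and 0 in cuSCC vs CHR, as given beside those results, and the whole-table count in cuSCC vs PAP was 810 in place of 1430. The block changed no member call in PAP vs CHR. In limma-voom, cuSCC vs PAP had 867 calls over the table, 0 members and 2 other pathway genes. A minimum mean of 100 normalised reads left 1 member called in PAP vs CHR, since Rarb fails that minimum, and 0 in cuSCC vs PAP. Quantile normalization gave 0 members and 2 other pathway genes in cuSCC vs PAP, and Cyp26b1 at -0.065 there. With only both groups in the fit, cuSCC vs PAP had 0 calls over the table, 0 members and 0 other pathway genes. The cause of these differences was not tested.

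Scaling to 8 keratinocyte genes gave 13726, 8517 and 11362 calls in PAP vs CHR, cuSCC vs PAP and cuSCC vs CHR, with 8, 5 and 7 members and, in cuSCC vs PAP, 21 other pathway genes, because it shifts every gene of a library. In PAP vs CHR it turned Rarg to -1.24, Rxra to -1.01, Crabp1 to -1.19 and Aldh1a3 to -0.66, and in cuSCC vs PAP it turned Rarg to 0.15, Rxra to 0.064 and Dhrs9 to 0.25.

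When each mouse was left out in turn, cuSCC vs PAP had 0 to 1995 calls over the table, 0 to 3 members and 0 to 6 other pathway genes, and cuSCC vs CHR had 1 to 4 members. Crabp2 ranged from -0.63 to 0.067 in PAP vs CHR and from -0.098 to 0.33 in cuSCC vs PAP, and Cyp26b1 from -0.079 to 0.13 in cuSCC vs PAP. The calls of Rara and Rarb in PAP vs CHR and of Crabp1 in cuSCC vs CHR kept their side of the threshold in 6 of 6 of these fits. Depth limited Rarb, which had 0 to 39 reads per library. Crabp1 in cuSCC vs PAP sat closest to the threshold, with an adjusted p of 0.0184 to 0.164 over the fits that left out a mouse.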
